A study of Mus musculus with 13 samples.

Results

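Collagen genes were described across hearts of R502W mice and wild-type (WT) mice. Members were the protein-coding mouse genes whose symbol is Col, a number, a and a number, and 44 of the 55471 genes in the deposited table met this rule. They were divided by protein architecture into 11 fibrillar collagens, 8 basement membrane collagens (the type IV chains with Col15a1 and Col18a1) and 25 other collagens. Whole-heart RNA had been sequenced in bulk, in 13 libraries. Of these, 4 came from R502W mice given the cardiac myosin inhibitor mavacamten at 2.5 mg/kg/day in the drinking water over 21 weeks (R502W mavacamten), 4 from R502W mice labelled control (R502W control) and 5 from WT mice labelled control (WT control). R502W is a missense change in cardiac myosin-binding protein C, a thick-filament protein of the sarcomere made by heart muscle cells. No source used here gave the zygosity of the allele, the strain, the sex or any vehicle of the controls. The design text put the mice at 24 weeks of age, the extraction protocol spoke of hearts of 3 and 18 weeks, and no label gave an age per library.

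Collagens are proteins of the extracellular matrix built from a triple helix of 3 chains. Fibrillar collagens form the tensile fibres between heart muscle cells and are made mainly by fibroblasts. Type IV chains form the sheet-like network of the basement membranes that surround each muscle cell and each capillary, and endothelial and mural cells are among their makers. Most other collagens decorate fibrils, link them to basement membranes, form fine beaded filaments or open networks, or span the cell membrane. Because the hearts were sequenced whole, a smaller number of cells of a type and less RNA per cell cannot be told apart.

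Total expected counts ran from 15350622 to 19361103 per library. The cardiomyocyte markers summed to between 35650 and 68080 CPM (counts per 1000000 on TMM-scaled library sizes) in every library, whose labelled tissue was whole heart. This sum ran from 49180 to 68080 CPM in R502W mavacamten hearts, 53290 to 60800 CPM in R502W control hearts and 35650 to 51020 CPM in WT control hearts. R502W control and WT control thus did not overlap. The largest part of the sum was Myh6, with a mean of 33180 CPM in R502W control hearts and 23500 CPM in WT control hearts. Actc1, Ryr2 and Mybpc3 also averaged higher in R502W control hearts. Tnnt2 (4864 against 5218 CPM) and Tnni3 (2248 against 2813 CPM) averaged lower there. The sum is therefore not read as a measure of heart muscle content, and its part in the collagen differences was not tested. Hearts differed in tissue content within groups. WT control 2 held 284.7 CPM of T cell and thymus markers against at most 3.80 CPM in each other library. Airway markers summed to 139 CPM in R502W mavacamten 1, 22.2 CPM in R502W mavacamten 4, 353 CPM in WT control 2 and 556 CPM in WT control 3, against at most 3.45 CPM in each other library. R502W mavacamten 3, R502W control 1 and WT control 3 were poor in the atrial gene Bmp10, and counts of collagen calls without these libraries stand beside the main counts below. In none of these libraries was the atrial marker Sln, Myl4 or Myl7 the lowest of its group. WT control 3 had the highest Sln (456.5 CPM) and Myl7 (1243 CPM) of all libraries, so low Bmp10 is not given as a measure of atrial content. Whether the libraries stand for different mice was not stated in the labels, and p-values cover the spread among libraries, which may be technical.

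The 6 type IV genes lie in 3 head-to-head pairs, and the sequences between or before their starts are shown because the levels of these pairs are compared below. Sequences are RefSeq promoter windows on GRCm38.p6, written 5′ to 3′ on the strand of the gene named, or on the plus strand for the shared intervals. Capitals mark matches to 4 motifs on either strand. The TATA box was searched as TATAAA. The CCAAT box was searched by those letters. The GC box was searched as GGGCGG. The letters of a SMAD factor's short binding motif were searched as CAGAC. Col4a1 and Col4a2 run in opposite directions and the annotated starts overlap by 22 bases within their first exons, at chr8:11312805-11312826. Col4a4 and Col4a3 start 71 bases apart at chr1:82586850-82586920. Col4a6 and Col4a5 start 1308 bases apart on the X chromosome, and the bases before each start are given at chrX:141474077-141474326 (minus strand) and chrX:141475169-141475384 (plus strand).
Col4a1 and Col4a2, overlap of the starts: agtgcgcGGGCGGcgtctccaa
Col4a4 and Col4a3, interval between the starts: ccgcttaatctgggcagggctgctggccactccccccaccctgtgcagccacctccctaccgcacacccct
Col4a6, before the start: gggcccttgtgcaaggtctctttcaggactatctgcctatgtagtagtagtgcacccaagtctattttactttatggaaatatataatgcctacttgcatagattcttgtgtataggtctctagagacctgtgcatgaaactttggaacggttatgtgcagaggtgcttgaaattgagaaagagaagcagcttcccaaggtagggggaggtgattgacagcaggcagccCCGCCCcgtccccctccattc
Col4a5, before the start: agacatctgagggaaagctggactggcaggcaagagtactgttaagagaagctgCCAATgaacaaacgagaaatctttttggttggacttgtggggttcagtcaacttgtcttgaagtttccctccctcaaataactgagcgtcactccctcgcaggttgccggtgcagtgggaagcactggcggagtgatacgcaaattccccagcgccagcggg

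Windows before the starts of 3 fibrillar genes are shown: Col5a3 and Col5a1 encode chains of one collagen type, and Col3a1 had the highest mean TPM of the family in R502W mavacamten and WT control hearts and the second highest, after Col4a1, in R502W control hearts. The windows lie at chr9:20815068-20815317 (minus strand, Col5a3), chr2:27886175-27886424 (plus strand, Col5a1) and chr1:45311288-45311537 (plus strand, Col3a1).
Col5a3, before the start: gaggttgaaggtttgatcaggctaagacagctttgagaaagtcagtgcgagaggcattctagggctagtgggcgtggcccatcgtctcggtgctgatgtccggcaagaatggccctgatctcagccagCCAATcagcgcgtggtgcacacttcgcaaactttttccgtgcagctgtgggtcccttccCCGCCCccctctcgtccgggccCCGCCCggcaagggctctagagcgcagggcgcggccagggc
Col5a1, before the start: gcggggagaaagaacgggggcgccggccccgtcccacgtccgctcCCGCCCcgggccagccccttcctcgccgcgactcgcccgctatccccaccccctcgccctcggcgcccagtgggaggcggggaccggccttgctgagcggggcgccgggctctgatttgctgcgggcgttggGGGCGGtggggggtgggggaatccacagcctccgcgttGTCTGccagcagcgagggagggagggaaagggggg
Col3a1, before the start: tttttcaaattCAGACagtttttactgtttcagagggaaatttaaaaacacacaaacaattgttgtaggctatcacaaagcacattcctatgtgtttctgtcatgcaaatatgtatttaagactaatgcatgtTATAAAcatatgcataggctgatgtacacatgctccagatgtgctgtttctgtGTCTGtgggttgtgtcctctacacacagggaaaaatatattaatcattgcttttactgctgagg
Of the 44 members, 35 had a promoter entry, with 38 windows in all. In the 250 bases before the start, the GC box letters stood in 57.9% of collagen windows and in 32.7% of all 32817 promoters. The TATA box letters stood in 13.2% of collagen windows and 12.4% of all promoters. The CCAAT letters stood in 34.2% and 33.8%, and those of the SMAD motif in 44.7% and 42.2%. A match describes letters in the window and is not a mapped binding site.

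Of the 44 collagen genes, 33 passed the filter on low counts, namely 8 fibrillar, 8 basement membrane and 17 other genes. To compare genes with each other, levels were computed per transcript length as TPM (transcripts per 1000000). Col3a1, the chain of type III collagen, averaged 109.7 ± 32.4 TPM in R502W mavacamten hearts, 126 ± 14.2 TPM in R502W control hearts and 74.4 ± 24.1 TPM in WT control hearts (mean ± SD, here and below). Col4a1 and Col4a2, the chains of the common basement membrane network, averaged 105 ± 16.7 TPM in R502W mavacamten hearts, 131 ± 14.6 TPM in R502W control hearts and 55.5 ± 11.6 TPM in WT control hearts for Col4a1, and 88.2 ± 16.5 TPM in R502W mavacamten hearts, 111 ± 9.88 TPM in R502W control hearts and 51.3 ± 9.28 TPM in WT control hearts for Col4a2. These 3 genes made up between 37.8% and 47.8% of all collagen TPM of a library, and in WT control hearts the SD ranges of Col3a1, Col4a1, Col4a2 and Col1a2 overlapped.

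Col1a2 averaged 63.5 ± 20.6 TPM in R502W mavacamten hearts, 76.5 ± 11.1 TPM in R502W control hearts and 51.7 ± 14.97 TPM in WT control hearts, and its partner chain in type I collagen, Col1a1, averaged 54.5 ± 16.6 TPM in R502W mavacamten hearts, 66.7 ± 10.9 TPM in R502W control hearts and 35.6 ± 10.1 TPM in WT control hearts. In the third class the beaded filament chains led, with Col6a2 at 52.8 ± 12.5 TPM in R502W mavacamten hearts, 61.2 ± 4.67 TPM in R502W control hearts and 38.0 ± 9.19 TPM in WT control hearts. Col6a1 averaged 49.2 ± 10.2 TPM in R502W mavacamten hearts, 57.2 ± 7.25 TPM in R502W control hearts and 41.1 ± 9.05 TPM in WT control hearts. With Col15a1 and Col4a5, these 9 genes accounted for between 84.0% and 87.9% of the collagen TPM of each library, so collagen RNA in these hearts came mostly from types I, III, IV, VI and XV.

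**Figure D1:**
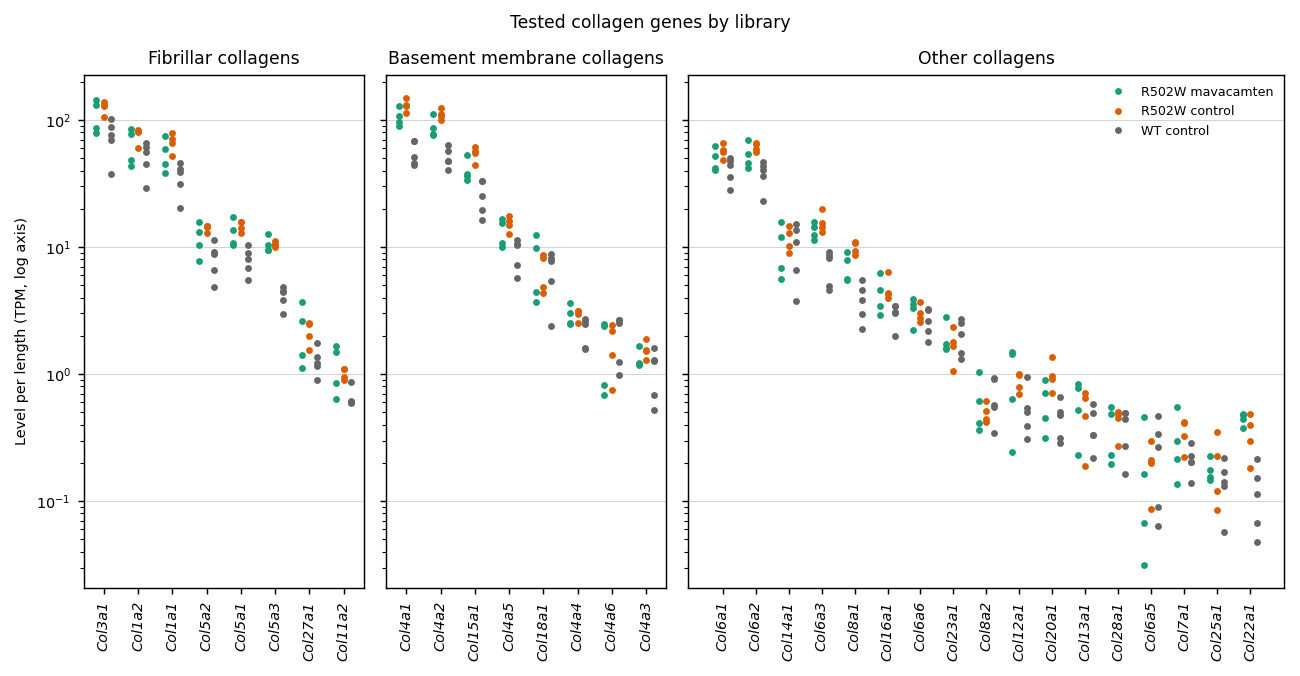
Level per length (TPM, log axis) of the 33 tested collagen genes, by class and ordered by the WT control mean, with 1 point per library (R502W mavacamten, R502W control and WT control from left to right within a gene). The levels span several decades of the axis, led by Col3a1, Col4a1, Col4a2, Col1a2 and Col1a1.

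The other 11 members did not pass the filter and were not tested. They were the fibrillar genes Col2a1, Col11a1 and Col24a1, the FACIT genes Col9a1, Col9a2, Col9a3 and Col19a1 (FACITs sit on the surface of fibrils), Col6a4, Col10a1, Col17a1 and Col26a1. None of them exceeded 14 counts in any library. Among them are the cartilage collagens of types II, IX and X and the epithelial hemidesmosome collagen Col17a1.

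The genotype comparison set R502W control hearts against WT control hearts. The chains of the common basement membrane network were higher in R502W control hearts, at 2.13-fold for Col4a1 and 1.95-fold for Col4a2. Among the other genes that passed were Col8a1 of vessel walls at 2.35-fold, the minor type V chain Col5a3 at 2.30-fold and the type I chain Col1a1 at 1.71-fold. Of the 33 tested collagens, 14 were higher in R502W control hearts by edgeR's quasi-likelihood test at an adjusted p under 0.05, and none was lower. The background over all 15000 genes tested was 8.63% called higher and 3.75% called lower. By class, 5 of 8 fibrillar, 4 of 8 basement membrane and 5 of 17 other collagens rose. The median log2 fold change was 0.54 over the 33 collagens and -0.01 over all genes. By unadjusted p under 0.05, 19 collagens passed, against a background of 29.1% of genes.

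Positive fold changes, whether or not they passed, were found for 28 of the 33, and Col23a1, Col8a2, Col4a6, Col6a5 and Col18a1 had negative ones. For 14 collagens no R502W control library fell to the WT control range, against 12.3% of all genes with R502W control entirely above. Without the 3 libraries poor in Bmp10, 9 collagens and 404 of all genes were called, against 14 collagens and 1856 of all genes with every library. The 9 were Col5a3, Col4a1, Col4a2, Col6a3, Col5a1, Col8a1, Col15a1, Col1a1 and Col5a2. Without WT control 2, the library with thymus markers, 12 collagens and 1870 of all genes were called. Collagen transcripts are long, with a median exonic length of 7833 bases against 4288.5 over all genes tested, and fold changes in this comparison rose with exonic length across genes (rank correlation 0.34). With each library's length trend removed, 9 collagens stayed called, where the background was 5.2% of genes higher. When the length of the main transcript was used for this in place of the exonic length, a choice made after seeing the data, 7 collagens were called against a background of 4.7%. By that length the medians were 6450 bases for tested collagens and 3029 over all genes tested, and the rank correlation with fold change was 0.41.

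**Figure D2:**
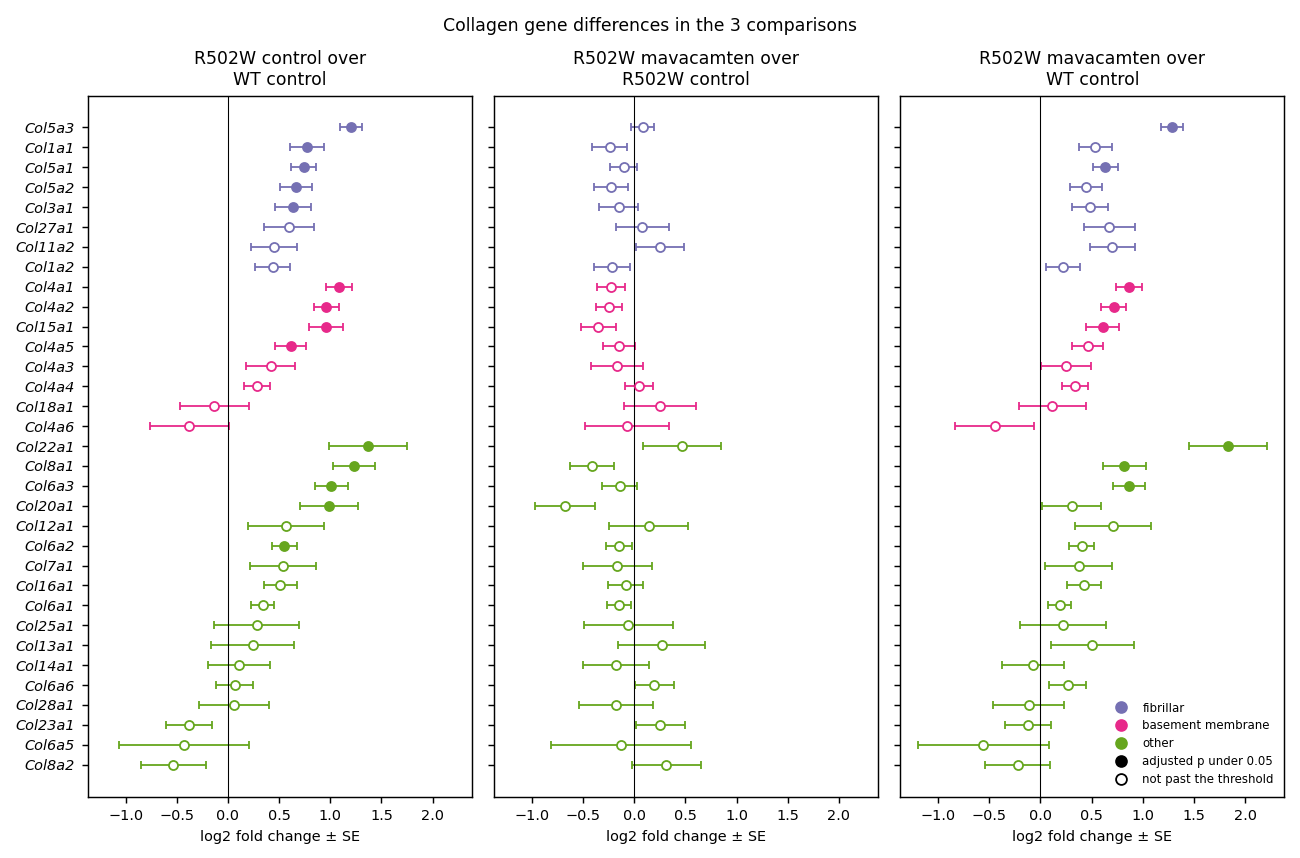
Log2 fold change ± SE of the 33 tested collagens in R502W control over WT control, R502W mavacamten over R502W control and R502W mavacamten over WT control. Filled points passed an edgeR adjusted p of 0.05; 14, 0 and 8 points are filled from left to right, and no filled point lies below 0.

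Among the fibrillar collagens, the largest difference was in Col5a3 (ENSMUSG00000004098; chromosome 9, 20770050 to 20815067, GRCm38), a minor chain of type V collagen. Its level was 40.7, 41.6, 39.4 and 30.6 CPM in R502W mavacamten hearts, 34.8, 33.8, 38.1 and 36.9 CPM in R502W control hearts and 13.4, 17.3, 17.3, 13.5 and 16.3 CPM in WT control hearts. Every library of both R502W groups lay above every WT control library, with a wide gap between them. R502W control exceeded WT control by a log2 fold change equal to 1.20 ± 0.11 (SE; edgeR adjusted p = 4.19e-05), which is 2.30-fold, and the call was kept in all 13 leave-one-out fits and under both length corrections.

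The major type V chains, which help to start fibrils and set their diameter, had smaller fold changes. Col5a1 had 75.8, 59.8, 59.1 and 60.5 CPM in R502W mavacamten hearts, 68.3, 69.4, 74.0 and 62.5 CPM in R502W control hearts and 34.3, 35.8, 43.5, 38.9 and 52.8 CPM in WT control hearts. Both R502W groups lay above WT control throughout. The difference between R502W control and WT control was 0.74 ± 0.12 (SE; edgeR adjusted p = 0.00231), and it did not pass with the transcript length trend removed (0.38, edgeR adjusted p = 0.0873).

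Col5a2, which lies 24614 bases from Col3a1 on chromosome 1, had 54.2, 45.2, 34.8 and 45.7 CPM in R502W mavacamten hearts, 55.5, 50.1, 54.8 and 49.8 CPM in R502W control hearts and 24.1, 27.3, 43.8, 34.9 and 35.2 CPM in WT control hearts. The R502W control libraries were above all WT control libraries, while R502W mavacamten 3 fell within the WT control range. The difference between R502W control and WT control was 0.67 ± 0.16 (SE; edgeR adjusted p = 0.0154), and it was lost with the length trend removed (0.46, edgeR adjusted p = 0.0689).

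Col1a1 and Col1a2 encode the chains of type I collagen, the most abundant collagen of heart scar. Col1a1 had 234, 175, 153 and 187 CPM in R502W mavacamten hearts, 222, 219, 262 and 180.5 CPM in R502W control hearts and 89.7, 117, 158, 132 and 148 CPM in WT control hearts. R502W control was above WT control in every library, and WT control 1 was the lowest library of all. The Col1a1 difference between R502W control and WT control, 0.77 ± 0.16 (SE; edgeR adjusted p = 0.00892), was kept in all 13 leave-one-out fits and passed with the exonic length trend removed, but not with the transcript length trend removed (0.55, edgeR adjusted p = 0.0541).

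Col1a2 had 236, 170.0, 159 and 219.8 CPM in R502W mavacamten hearts, 246, 228, 253 and 187 CPM in R502W control hearts and 115, 151, 206, 174 and 198 CPM in WT control hearts. The groups overlapped, and the difference between R502W control and WT control, 0.44 ± 0.17 (SE; edgeR adjusted p = 0.102), did not pass. Its interval ran from 0.08 to 0.79 on the log2 scale.

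Col3a1 had 418, 315, 296 and 385 CPM in R502W mavacamten hearts, 408, 382, 437 and 344 CPM in R502W control hearts and 155, 242, 328, 243 and 293 CPM in WT control hearts. R502W control was above WT control in every library, by 0.64 ± 0.18 (SE; edgeR adjusted p = 0.0319). This call was lost in 6 of the 13 fits with 1 library left out and with the length trend removed (0.42, edgeR adjusted p = 0.155). The remaining tested fibrillar genes had low levels: Col27a1, a fibrillar collagen known from cartilage, had 5.74 to 14.98 CPM in R502W mavacamten hearts, 6.84 to 11.04 CPM in R502W control hearts and 5.06 to 7.79 CPM in WT control hearts, and Col11a2, a type XI chain, had 2.62 to 5.29 CPM in R502W mavacamten hearts, 3.16 to 3.71 CPM in R502W control hearts and 2.11 to 3.30 CPM in WT control hearts. Neither passed in R502W control over WT control (0.60 ± 0.25 with edgeR adjusted p = 0.128 for Col27a1 and 0.45 ± 0.22 with edgeR adjusted p = 0.196 for Col11a2).

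Among the basement membrane collagens, the paired genes Col4a1 (ENSMUSG00000031502; chromosome 8, 11198423 to 11312826) and Col4a2 (ENSMUSG00000031503; chromosome 8, 11312805 to 11449287) both rose. Col4a1 had 443, 466, 405 and 336 CPM in R502W mavacamten hearts, 486, 455, 555 and 437 CPM in R502W control hearts and 219, 191, 260.0, 196 and 269.9 CPM in WT control hearts. All R502W libraries lay above all WT control libraries, and in R502W control hearts Col4a1 was 2.13-fold higher, or 1.09 ± 0.13 (SE; edgeR adjusted p = 0.000256) on the log2 scale.

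Col4a2 had 377, 371, 338 and 262 CPM in R502W mavacamten hearts, 397, 375, 449 and 376 CPM in R502W control hearts and 193, 192, 214, 177 and 248 CPM in WT control hearts. Here too the R502W groups did not overlap with WT control. The R502W control over WT control difference was 0.96 ± 0.12 (SE; edgeR adjusted p = 0.000445). The calls of both genes were kept in all 13 leave-one-out fits and under both length corrections. The starts of these genes overlap as shown above, on opposite strands, and no source used here gave the strand setting of the counting.

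Col15a1, a multiplexin that anchors basement membranes to fibrils, had 142, 123, 133 and 92.7 CPM in R502W mavacamten hearts, 167, 148, 177 and 134 CPM in R502W control hearts and 63.4, 63.3, 98.6, 75.5 and 102 CPM in WT control hearts. The R502W control libraries were all above the WT control libraries, and R502W mavacamten 4 fell within the WT control range. The R502W control over WT control difference was 0.96 ± 0.16 (SE; edgeR adjusted p = 0.00314), kept in all 13 leave-one-out fits and under both length corrections. Its relative Col18a1, the source of endostatin, had 13.6 to 36.7 CPM in R502W mavacamten hearts, 14.2 to 27.6 CPM in R502W control hearts and 9.90 to 29.7 CPM in WT control hearts, and its difference of -0.13 ± 0.33 (SE; edgeR adjusted p = 0.828) in R502W control over WT control did not pass.

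Col4a5, an X-linked chain that pairs with Col4a3 and Col4a4 in some basement membranes, had 57.0, 46.3, 44.0 and 53.1 CPM in R502W mavacamten hearts, 55.5, 59.8, 58.4 and 48.3 CPM in R502W control hearts and 35.0, 23.3, 38.9, 39.5 and 44.9 CPM in WT control hearts. R502W control lay above WT control, by 0.61 ± 0.15 (SE; edgeR adjusted p = 0.0195), and R502W mavacamten 3 lay within the WT control range. The Col4a5 call was lost without R502W control 2 or without R502W control 3, and with the transcript length trend removed (0.36, edgeR adjusted p = 0.0619).

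The neighbour of Col4a5, Col4a6, had 3.02 to 8.71 CPM in R502W mavacamten hearts, 2.81 to 8.504 CPM in R502W control hearts and 4.84 to 10.7 CPM in WT control hearts. Its groups overlapped, with -0.38 ± 0.39 (SE; edgeR adjusted p = 0.552) in R502W control over WT control. Col4a3 and Col4a4, which share the 71 bases between their starts, were low as well. Col4a3 differed by 0.42 ± 0.24 (SE; edgeR adjusted p = 0.267) and Col4a4 by 0.29 ± 0.13 (SE; edgeR adjusted p = 0.154) in R502W control over WT control, and neither passed. Of the type IV genes, then, the Col4a1 and Col4a2 pair and Col4a5 passed and the others did not; whether the pairs differed from each other was not tested.

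Among the other collagens, the beaded filament genes of type VI gave 2 of the 5 calls. Col6a3, the largest type VI chain, had 73.5, 67.8, 75.9 and 69.0 CPM in R502W mavacamten hearts, 74.5, 73.2, 100.1 and 68.4 CPM in R502W control hearts and 30.9, 28.0, 47.8, 42.1 and 47.3 CPM in WT control hearts. Both R502W groups lay above WT control without overlap. The R502W control over WT control difference was 1.01 ± 0.16 (SE; edgeR adjusted p = 0.00176), which is 2.02-fold, kept in all 13 leave-one-out fits and under both length corrections.

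Col6a2 had 144, 118, 112 and 112 CPM in R502W mavacamten hearts, 134, 134, 145 and 127 CPM in R502W control hearts and 68.1, 89.5, 99.5, 92.2 and 111 CPM in WT control hearts. Both R502W groups were above WT control, although R502W mavacamten 3 and WT control 5 were nearly equal. R502W control over WT control differed by 0.55 ± 0.12 (SE; edgeR adjusted p = 0.0115), which did not pass with the exonic length trend removed (0.38, edgeR adjusted p = 0.0709) and passed with the transcript length trend removed (0.47, edgeR adjusted p = 0.0253). Col6a1, the third core chain and neighbour of Col6a2 on chromosome 10, had 113 to 134 CPM in R502W mavacamten hearts, 116 to 153 CPM in R502W control hearts and 86.0 to 119 CPM in WT control hearts. Its difference of 0.34 ± 0.11 (SE; edgeR adjusted p = 0.0636) in R502W control over WT control did not pass. Col6a5 and Col6a6 had -0.43 ± 0.64 and 0.07 ± 0.18 and did not pass (edgeR adjusted p = 0.694 and 0.836).

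Col8a1, a short-chain collagen that forms open networks in vessel walls, had 24.3, 26.4, 19.4 and 14.9 CPM in R502W mavacamten hearts, 31.9, 25.0, 30.7 and 25.5 CPM in R502W control hearts and 11.3, 7.20, 13.6, 11.2 and 16.9 CPM in WT control hearts. The R502W control libraries were well above the WT control libraries, while R502W mavacamten 4 fell within the WT control range. The R502W control over WT control difference was 1.23 ± 0.21 (SE; edgeR adjusted p = 0.0028), kept in all 13 leave-one-out fits and under both length corrections. Col8a2, the other chain of type VIII collagen, had 1.03 to 2.36 CPM in R502W mavacamten hearts, 1.00 to 1.55 CPM in R502W control hearts and 1.10 to 2.40 CPM in WT control hearts. It differed by -0.53 ± 0.32 (SE; edgeR adjusted p = 0.289) in R502W control over WT control, which did not pass.

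Col22a1, a FACIT found at tissue junctions such as the muscle-tendon junction, was low and had 2.19, 2.57, 2.27 and 2.27 CPM in R502W mavacamten hearts, 1.502, 1.83, 0.900 and 2.49 CPM in R502W control hearts and 0.440, 0.840, 0.241, 0.577 and 1.13 CPM in WT control hearts. R502W control and WT control overlapped, since R502W control 3 was below WT control 5. The R502W control over WT control difference was 1.37 ± 0.38 (SE; edgeR adjusted p = 0.0337), and it was lost in 9 of the 13 fits with 1 library left out and with the length trend removed (1.17, edgeR adjusted p = 0.0813).

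Col20a1, another FACIT gene, had 2.36, 1.48, 1.06 and 1.89 CPM in R502W mavacamten hearts, 2.61, 3.56, 2.70 and 2.07 CPM in R502W control hearts and 1.17, 0.900, 1.93, 1.36 and 1.51 CPM in WT control hearts. The R502W control libraries lay above the WT control libraries, by 0.99 ± 0.28 (SE; edgeR adjusted p = 0.0368). The Col20a1 call was lost in 8 of the 13 fits with 1 library left out and with the length trend removed (0.94, edgeR adjusted p = 0.0519). A second annotated gene lies over Col20a1 on the same strand, with up to 114 counts in a library, so its counts are uncertain.

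The remaining 8 tested members of this class did not pass. Among the FACITs, Col16a1 came closest (0.51 ± 0.16, edgeR adjusted p = 0.0552), with R502W control entirely above WT control. Col12a1 had 0.56 ± 0.37 (edgeR adjusted p = 0.334) and Col14a1 had 0.11 ± 0.31 (edgeR adjusted p = 0.851) in R502W control over WT control. Col14a1 varied widely within groups, with 24.7 to 54.1 CPM in R502W mavacamten hearts, 34.0 to 54.1 CPM in R502W control hearts and 18.0 to 56.3 CPM in WT control hearts. The transmembrane collagens Col13a1, Col23a1 and Col25a1 had 0.24 ± 0.41, -0.38 ± 0.23 and 0.28 ± 0.42, and Col7a1, which forms the anchoring fibrils of skin, and Col28a1 had 0.54 ± 0.32 and 0.06 ± 0.34. The edgeR adjusted p-values of these 5 lay between 0.284 and 0.927.

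**Figure D3:**
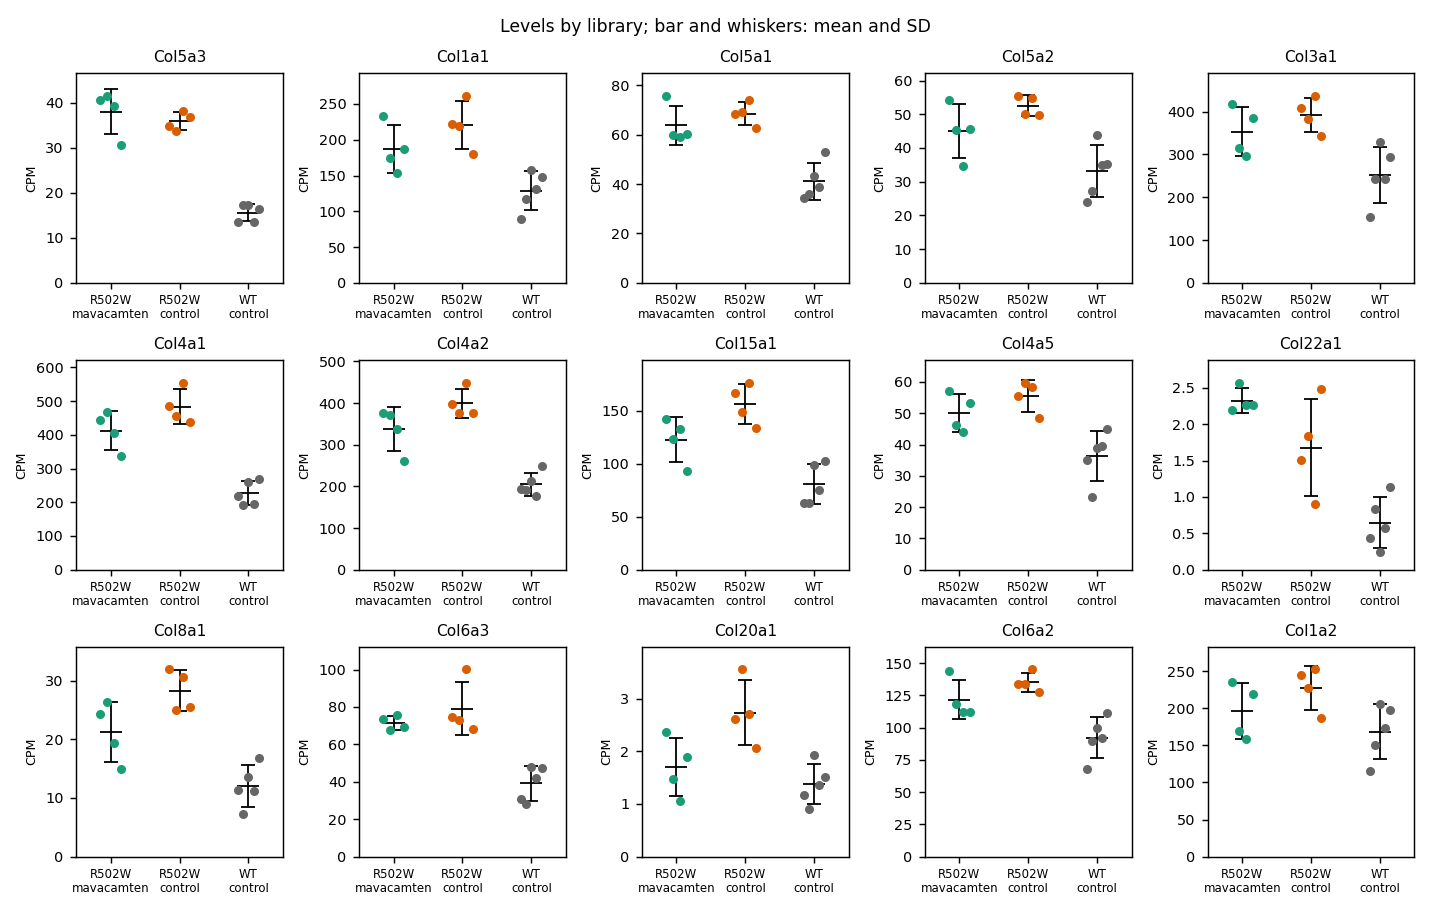
CPM (counts per 1000000 on TMM-scaled library sizes) per library of the 14 collagens called in R502W control over WT control and of Col1a2, with mean and SD as black bars, for R502W mavacamten, R502W control and WT control from left to right. Every axis starts at 0. For Col5a3, Col4a1, Col4a2, Col5a1 and Col6a3 both R502W groups lie above WT control, while R502W mavacamten and R502W control overlap in every panel.

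The treatment comparison set R502W mavacamten hearts against R502W control hearts. No collagen was called in either direction, and no gene at all was called among 15000, a background of 0%. By unadjusted p under 0.05, 525 genes (3.5%) passed, and Col20a1 was the single collagen among them, at -0.68 (95% interval -1.31 to -0.04) on the log2 scale. DESeq2 called 1 gene higher (0.00667%) and 5 lower (0.0333%), none of them a collagen. The collagens had 11 positive and 22 negative fold changes, with a median of -0.14 against 0.00 over all genes. No collagen had all R502W mavacamten libraries on one side of all R502W control libraries, against 1.29% of genes above and 1.58% below.

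The width of the intervals shows what this comparison could resolve. Col4a1 differed by -0.23 (95% interval -0.52 to 0.06), Col4a2 by -0.25 (95% interval -0.52 to 0.03) and Col15a1 by -0.35 (95% interval -0.72 to 0.02) between R502W mavacamten and R502W control, all as log2 fold changes. Col8a1 differed by -0.41 (95% interval -0.88 to 0.06). Among the fibrillar genes, Col1a1 differed by -0.24 (95% interval -0.61 to 0.13), Col3a1 by -0.15 (95% interval -0.55 to 0.25) and Col5a3 by 0.08 (95% interval -0.16 to 0.33). For Col5a3, differences below -0.16 or above 0.33 were outside the interval, whereas for Col22a1, at 0.46 (95% interval -0.35 to 1.28), the interval allowed differences past 1. A difference that missed the threshold does not show equal levels.

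The third comparison set R502W mavacamten hearts against WT control hearts. It shares libraries with each of the other comparisons, so its results are given beside theirs and are not independent of them. Of the 33 collagens, 8 rose and none fell, against a background of 5.93% of genes higher and 2.29% lower. They were 2 of 8 fibrillar (Col5a3 and Col5a1), 3 of 8 basement membrane (Col4a1, Col4a2 and Col15a1) and 3 of 17 other collagens (Col6a3, Col22a1 and Col8a1). Each of the 8 was also among the 14 called in R502W control over WT control. By unadjusted p under 0.05, 17 collagens passed, against 25.8% of all genes, and 8 collagens, not all of them called, had every R502W mavacamten library above the WT control range, against 8.54% of all genes. The median log2 fold change was 0.43 over the collagens and 0.00 over all genes.

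The count depended on single libraries and on the processing. It was 5 without R502W mavacamten 2 (359 of all genes called) and 8 without WT control 2 (1213 of all genes). Without the libraries poor in Bmp10 it was 3 (86 of all genes), and with every library 1232 of all genes were called. Those 3 were Col5a3, Col4a1 and the FACIT gene Col12a1, which was not among the 8. With the length trend removed the collagen count was 6 (background 2.52% higher). With the transcript length trend removed it was 2, Col5a3 and Col4a1 (background 1.83% higher). Col5a3 differed by 1.29 ± 0.11 (SE; edgeR adjusted p = 0.000101) in R502W mavacamten over WT control. Col4a1 differed by 0.86 ± 0.13 (SE; edgeR adjusted p = 0.0033), Col4a2 by 0.72 ± 0.12 (SE; edgeR adjusted p = 0.0061), Col6a3 by 0.87 ± 0.16 (SE; edgeR adjusted p = 0.00889) and Col5a1 by 0.64 ± 0.12 (SE; edgeR adjusted p = 0.0109). For these 5 genes the calls were kept in all 13 leave-one-out fits, and no R502W mavacamten library fell within the WT control range.

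Col22a1 differed by 1.83 ± 0.38 (SE; edgeR adjusted p = 0.0137), with all R502W mavacamten libraries above WT control, and its call was lost without R502W mavacamten 2. Col8a1 (0.82 ± 0.21, edgeR adjusted p = 0.0322) and Col15a1 (0.61 ± 0.16, edgeR adjusted p = 0.0389) overlapped with WT control through R502W mavacamten 4, and their calls were lost in 6 and 9 of the 13 fits with 1 library left out. The type I and III chains did not pass: Col1a1 had 0.54 ± 0.16 (SE; edgeR adjusted p = 0.0586), Col1a2 0.22 ± 0.17 (SE; edgeR adjusted p = 0.44) and Col3a1 0.49 ± 0.18 (SE; edgeR adjusted p = 0.103). Of the other genes called in R502W control over WT control, Col6a2 had 0.40 ± 0.12 (SE; edgeR adjusted p = 0.0576), Col4a5 0.46 ± 0.15 (SE; edgeR adjusted p = 0.0751), Col5a2 0.44 ± 0.16 (SE; edgeR adjusted p = 0.096) and Col20a1 0.31 ± 0.29 (SE; edgeR adjusted p = 0.532). A gene that passed against WT control in one R502W group and not in the other is not thereby shown to differ between them, and the treatment comparison, which tests that difference, called none.

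Summed over each class, collagen RNA was highest in R502W control hearts on average. The fibrillar genes summed to 1075, 817, 749.9 and 949 CPM in R502W mavacamten hearts, 1049, 996, 1131 and 871 CPM in R502W control hearts and 439.8, 601, 808, 643 and 752 CPM in WT control hearts. On these TMM-scaled sizes only R502W mavacamten 3 fell within the WT control range for this sum, and R502W control lay above it. On plain library totals R502W mavacamten 2 (741 CPM) and R502W mavacamten 3 (662 CPM) both lay within that range, which reached 855 CPM. The basement membrane genes summed to 1082, 1047, 964 and 811 CPM in R502W mavacamten hearts, 1168, 1094, 1278 and 1039 CPM in R502W control hearts and 542, 506, 671, 544 and 728 CPM in WT control hearts. For this class both R502W groups lay above WT control in every library, with a mean 1.63-fold that of WT control in R502W mavacamten and 1.91-fold in R502W control.

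The other collagens summed to 479, 399, 395 and 422 CPM in R502W mavacamten hearts, 475, 457, 516 and 420.0 CPM in R502W control hearts and 250.5, 282, 389, 338 and 392 CPM in WT control hearts. Here R502W mavacamten and WT control nearly touched, and on plain library totals they overlapped, at 349 to 512 CPM in R502W mavacamten and 222 to 412 CPM in WT control. Over all 44 genes the sum averaged 2298 ± 234 CPM in R502W mavacamten hearts, 2624 ± 250 CPM in R502W control hearts and 1577 ± 287 CPM in WT control hearts (SD). R502W mavacamten ranged from 2110 to 2636 CPM and WT control from 1232 to 1872 CPM on TMM-scaled library sizes, and on plain library totals they overlapped, at 1862 to 2817 CPM in R502W mavacamten and 1090 to 1977 CPM in WT control. These sums are given as levels, with no test.

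**Figure D4:**
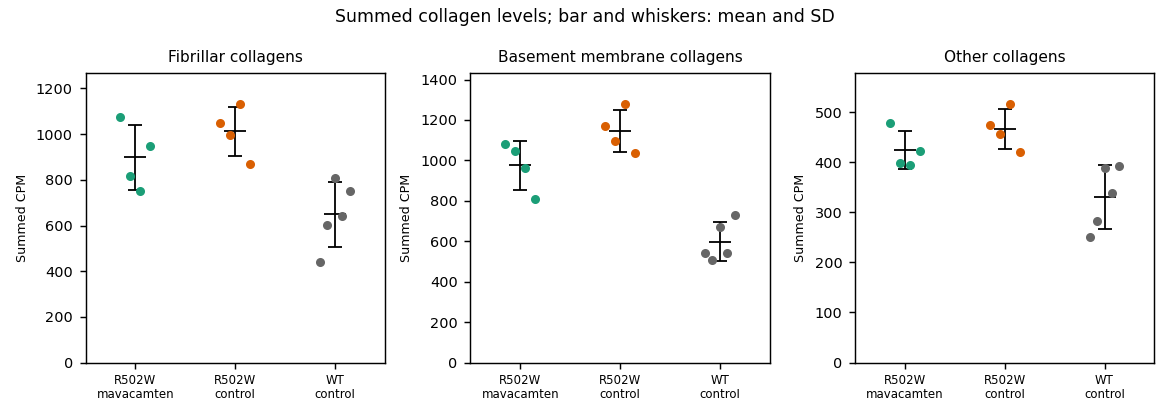
Summed CPM of the fibrillar, basement membrane and other collagens per library, with mean and SD as black bars, for R502W mavacamten, R502W control and WT control from left to right; axes start at 0. The basement membrane sums run from 811 to 1082 CPM in R502W mavacamten hearts, from 1039 to 1278 CPM in R502W control hearts and from 506 to 728 CPM in WT control hearts.

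Ratios between chains of one collagen type were taken within each library on TPM for 9 pairs, and in 4 of them R502W control lay wholly above WT control. The ratio of Col1a1 to Col1a2 was 0.891, 0.929, 0.872 and 0.766 in R502W mavacamten hearts, 0.816, 0.866, 0.934 and 0.872 in R502W control hearts and 0.702, 0.700, 0.694, 0.685 and 0.676 in WT control hearts. WT control libraries were nearly alike, at 0.691 ± 0.011 (SD), and every R502W library lay above them, at 0.865 ± 0.070 in R502W mavacamten hearts and 0.872 ± 0.048 in R502W control hearts. A ratio shows unequal change and does not say which chain moved.

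The ratio of Col6a3 to Col6a1 averaged 0.277 ± 0.0227 in R502W mavacamten hearts, 0.274 ± 0.0170 in R502W control hearts and 0.171 ± 0.0201 in WT control hearts (SD), and that of Col5a3 to Col5a1 averaged 0.825 ± 0.129 in R502W mavacamten hearts, 0.722 ± 0.0619 in R502W control hearts and 0.530 ± 0.0891 in WT control hearts. For both ratios the R502W libraries lay above all WT control libraries. For Col4a1 to Col4a2, the pair with overlapping starts, the ratio averaged 1.20 ± 0.0493 in R502W mavacamten hearts, 1.18 ± 0.0311 in R502W control hearts and 1.08 ± 0.0793 in WT control hearts, and R502W and WT control libraries overlapped. Col8a1 to Col8a2 averaged 13.3 ± 6.10 in R502W mavacamten hearts, 20.5 ± 4.94 in R502W control hearts and 6.10 ± 1.86 in WT control hearts, with R502W above WT control in every library, the closest being R502W mavacamten 1 at 8.72 and WT control 1 at 8.71. In the other 4 pairs R502W control and WT control also overlapped. Col4a3 to Col4a4 averaged 0.455 ± 0.0423 in R502W mavacamten hearts, 0.527 ± 0.0504 in R502W control hearts and 0.469 ± 0.0989 in WT control hearts, and Col4a5 to Col4a6 averaged 10.2 ± 4.42 in R502W mavacamten hearts, 11.03 ± 6.80 in R502W control hearts and 4.85 ± 1.42 in WT control hearts. Col5a1 to Col5a2 averaged 1.13 ± 0.142 in R502W mavacamten hearts, 1.03 ± 0.0583 in R502W control hearts and 0.999 ± 0.167 in WT control hearts, and Col6a1 to Col6a2 averaged 0.938 ± 0.0383 in R502W mavacamten hearts, 0.932 ± 0.0603 in R502W control hearts and 1.09 ± 0.0932 in WT control hearts. For Col6a1 to Col6a2 every R502W mavacamten library lay below every WT control library. The ratios were not tested, and the low counts of Col8a2 make its ratio uncertain. They were not corrected for the length trend, and the transcripts of Col6a3 and Col6a1 have 9001 and 4100 bases. With the transcript length trend removed, R502W control over WT control differed by 0.64 for Col6a3 and 0.25 for Col6a1, against 1.01 and 0.34 without this.

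**Figure D5:**
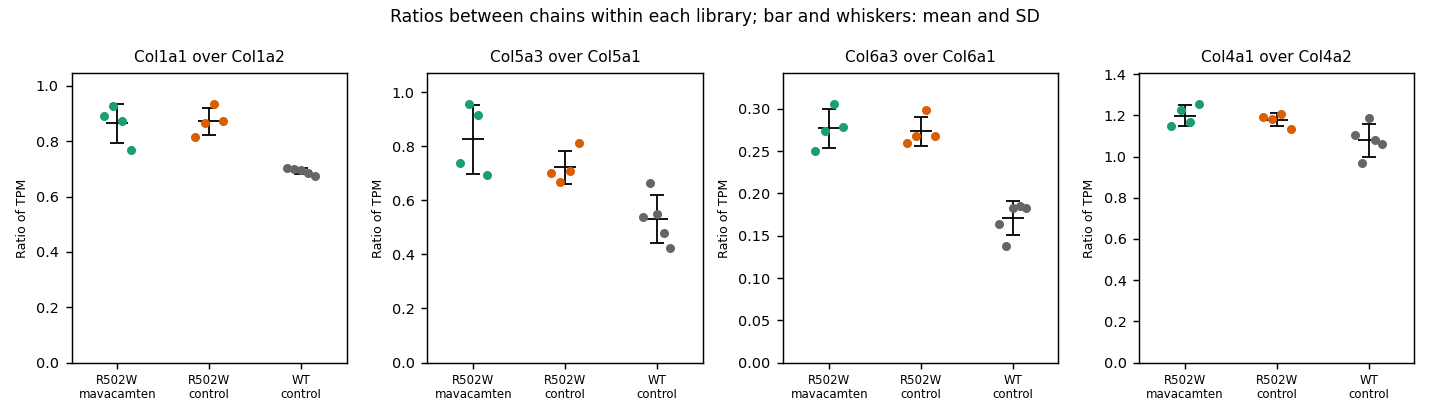
Ratio of TPM within each library for Col1a1 over Col1a2, Col5a3 over Col5a1, Col6a3 over Col6a1 and Col4a1 over Col4a2, with mean and SD as black bars, for R502W mavacamten, R502W control and WT control from left to right; axes start at 0. In the first 3 panels every R502W library lies above every WT control library, and in the panel of Col4a1 over Col4a2 the groups overlap.

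Collagen chains are hydroxylated, folded by dedicated chaperones, trimmed outside the cell and cross-linked, and a list of 50 genes for these steps and for collagen uptake and breakdown was counted whole. Of its 48 tested members, 10 rose and 3 fell in R502W control over WT control, none was called in R502W mavacamten over R502W control, and 4 rose and 2 fell in R502W mavacamten over WT control. Over all genes tested, 8.63% rose and 3.75% fell in R502W control over WT control, and 5.93% rose and 2.29% fell in R502W mavacamten over WT control, where the shares of the list were near those of all genes. The median log2 fold changes were 0.13, -0.07 and 0.05, and with the length trend removed the counts were 6 up and 2 down, none, and 1 up and 2 down.

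In the hydroxylation and glycosylation group of 14 tested genes, 4 rose and 2 fell in R502W control over WT control. P4ha1, a catalytic subunit of prolyl 4-hydroxylase, which stabilises the triple helix, had 65.6 ± 7.69 CPM in R502W control hearts and 38.5 ± 3.204 CPM in WT control hearts (log2 0.77 ± 0.11, edgeR adjusted p = 0.000831). Its paralog P4ha2 had 52.9 ± 5.98 CPM in R502W control hearts and 34.6 ± 4.69 CPM in WT control hearts (log2 0.61 ± 0.12, edgeR adjusted p = 0.00568), and the prolyl 3-hydroxylase P3h2 had 8.17 ± 1.14 CPM in R502W control hearts and 4.57 ± 0.670 CPM in WT control hearts (log2 0.84 ± 0.17, edgeR adjusted p = 0.00707). In R502W mavacamten over WT control 1 of the 14 passed, P4ha1, at 0.45 ± 0.11, edgeR adjusted p = 0.0246.

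In the folding and export group, Serpinh1, the collagen-specific chaperone HSP47, had 235 ± 29.6 CPM in R502W control hearts and 148 ± 7.83 CPM in WT control hearts (log2 0.66 ± 0.10, edgeR adjusted p = 0.00139). Mia3, which helps load procollagen into transport vesicles, rose (0.34 ± 0.11, edgeR adjusted p = 0.0488), and Fkbp10, a prolyl isomerase that folds procollagen, fell (-0.46 ± 0.10, edgeR adjusted p = 0.0113). Mia3 and Fkbp10 passed in the same directions in R502W mavacamten over WT control (0.38 ± 0.11, edgeR adjusted p = 0.0429 for Mia3 and -0.46 ± 0.10, edgeR adjusted p = 0.0174 for Fkbp10). The Mia3 call was lost in 11 of the 13 fits with 1 library left out in each of these comparisons.

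None of the 7 propeptide removal genes was called in R502W control over WT control, and Pcolce2, an enhancer of procollagen C-proteinase, fell in R502W mavacamten over WT control (-0.45 ± 0.13, edgeR adjusted p = 0.0436), a call lost in 11 of the 13 fits with 1 library left out. Of 5 crosslinking genes, the lysyl oxidase Loxl2 rose in R502W control over WT control (0.45 ± 0.14, edgeR adjusted p = 0.0453), a call lost in 10 of the 13 fits with 1 library left out. Of 9 receptors and uptake genes, Mrc2, which takes up collagen fragments, and the collagen-binding integrin subunit Itga1 rose in R502W control over WT control (0.64 ± 0.13, edgeR adjusted p = 0.00637 for Mrc2 and 0.70 ± 0.17, edgeR adjusted p = 0.0205 for Itga1). Itga1 also passed in R502W mavacamten over WT control (0.79 ± 0.17, edgeR adjusted p = 0.0188). With the length trend removed neither Itga1 call was kept, at 0.40 (edgeR adjusted p = 0.111) in R502W mavacamten over WT control and 0.30 (edgeR adjusted p = 0.184) in R502W control over WT control. Among 6 breakdown genes, the membrane-bound collagenase Mmp14 rose in both (0.69 ± 0.12, edgeR adjusted p = 0.00331 in R502W control over WT control and 0.53 ± 0.12, edgeR adjusted p = 0.0225 in R502W mavacamten over WT control). With the length trend removed the Mia3 and Loxl2 calls were also lost, as was that of Mmp14 in R502W mavacamten over WT control (edgeR adjusted p = 0.0505).

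Markers of collagen-making cells were counted beside the collagens. None of the 6 fibroblast markers was called in any comparison. Over all genes tested, 8.63% rose and 3.75% fell in R502W control over WT control. These shares were 5.93% and 2.29% in R502W mavacamten over WT control, and 0% in the treatment comparison. No call among 6 genes is near these shares and is not read as a result about fibroblasts. The summed level of the fibroblast markers ran from 2120 to 2739 CPM in R502W mavacamten hearts, 2241 to 2883 CPM in R502W control hearts and 2457 to 3167 CPM in WT control hearts. Its largest part was Gsn, with a mean of 1644 CPM in R502W control hearts and 1959 CPM in WT control hearts. Dcn, Dpt and Tcf21 also averaged lower in R502W control than in WT control hearts. Pdgfra (67.0 against 49.5 CPM) and Lum (87.8 against 80.9 CPM) averaged higher. Of 5 tested markers of activated fibroblasts, Thbs4 (1.63 ± 0.32, edgeR adjusted p = 0.0069) and Meox1 (1.02 ± 0.22, edgeR adjusted p = 0.00997) rose in R502W control over WT control. Postn (0.44 ± 0.24, edgeR adjusted p = 0.244), Comp (-0.02 ± 0.20, edgeR adjusted p = 0.959) and Fap (-0.06 ± 0.18, edgeR adjusted p = 0.859) did not pass. The sum of this list ran from 72.8 to 156 CPM in R502W mavacamten hearts, 141.5 to 184 CPM in R502W control hearts and 91.9 to 148 CPM in WT control hearts.

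Beside the basement membrane collagens, 2 of 6 endothelial markers, Kdr (0.73 ± 0.15, edgeR adjusted p = 0.00929) and Cldn5 (0.70 ± 0.15, edgeR adjusted p = 0.00929), rose in R502W control over WT control. Over all genes tested, 8.63% rose and 3.75% fell in this comparison, and 12.3% had R502W control entirely above WT control. With 6 genes in a list, the calls here and among the mural markers below are not read as a result about these cells. The endothelial sum ran from 581 to 811 CPM in R502W mavacamten hearts, 766 to 905 CPM in R502W control hearts and 517 to 678 CPM in WT control hearts, so that R502W control lay above WT control in every library. R502W mavacamten 4, the lowest R502W library for Col4a1, Col4a2, Col15a1 and Col8a1, also had the lowest endothelial sum of the R502W libraries. It was the lowest R502W library for Col4a3, Col6a1 and the fibrillar gene Col5a3 as well. Other basement membrane genes went the other way in it. Col18a1 was the highest of all libraries there (36.7 CPM), and Col4a6 was the highest of the R502W libraries (8.71 CPM). The same library had the highest Myh11 (220 CPM) and Cnn1 (34.4 CPM), both smooth muscle markers, of all libraries. Of 6 mural and smooth muscle markers, Cspg4 (0.66 ± 0.12, edgeR adjusted p = 0.00463) and Notch3 (0.56 ± 0.12, edgeR adjusted p = 0.0115) rose in R502W control over WT control, Cspg4 at 0.38 with the length trend removed, with sums of 595 to 698 CPM in R502W mavacamten hearts, 568 to 727 CPM in R502W control hearts and 423 to 671 CPM in WT control hearts. Mesothelial and epicardial markers summed to 36.8 to 96.0 CPM in R502W mavacamten hearts, 42.0 to 87.2 CPM in R502W control hearts and 65.1 to 184 CPM in WT control hearts. No marker of these 5 lists was at 0 in every library, and their part in the collagen differences was not tested.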

How the data were processed

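Per the labels' protocols, RNA of whole hearts was poly(A)-selected for strand-specific libraries. The values deposited by the authors were expected counts per gene from RSEM; cutadapt, FastQC, DESeq2 and the build GRCm38 were also named, all per the submitters' processing notes, and 5.8% of values were not whole. For the aligner and the strand option, the entry is: not given in the sources used here. Symbols, coordinates and lengths came from GENCODE M21, in which 55230 of 55471 gene IDs had a symbol.

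Expected counts were rounded and fitted in edgeR 4.0.16 (R 4.3.3) by quasi-likelihood with a mean for each group over all 13 libraries and TMM scaling, after filterByExpr (minimum count 10, minimum total 15), which kept 15000 genes. The 3 comparisons were contrasts, with Benjamini-Hochberg adjustment over all 15000 genes and calls at an adjusted p under 0.05; intervals are 95%. The biological coefficient of variation was 0.232. CPM uses TMM-scaled totals, and TPM was computed from the counts and the length of each gene's principal transcript. The fit was tested on simulated data. Within groups, the 22 pairs of libraries had a chi-square per degree of freedom from 7.60 to 110, so each pair differed by more than sampling noise and all libraries were kept.

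The members, classes and lists, and the libraries left out for low Bmp10, were chosen with earlier results of these data known. Each member called in a comparison is named, with its value in every library, and so are Col1a2 and the leading members of each class by TPM; of the collagen processing list, up to 3 called genes per group of smallest adjusted p are named. Other members are named to account for the whole family. Markers of valve and cartilage, Schwann cells, fat, airway, atrium and skeletal muscle were also listed. Among these lists only Sox9 (log2 0.79) was called higher and Sox10 (-1.21), Scgb1a1 (-8.55) and Cyp2f2 (-7.07) lower in R502W control over WT control by edgeR; no T cell and thymus marker was called. The 2 airway genes were high in WT control 2 and 3 alone of the WT control libraries, and their calls were lost in 5 (Scgb1a1) and 6 (Cyp2f2) of 13 fits with 1 library left out. The cardiomyocyte marker Mybpc3 encodes cardiac myosin-binding protein C, the protein that R502W changes, so it is not read here as a measure of heart muscle cells. It rose in both comparisons with WT control, also in each of those 13 fits and with the length trend removed. Ryr2 passed in both, but in neither with the length trend removed, and its call in R502W mavacamten over WT control was lost in 10 of the 13 fits. In that comparison Myh6, Kdr, Cspg4 and Notch3 also passed upward and the mesothelial marker Wt1 downward; these calls were lost in 11 fits for Myh6, 4 for Kdr, 8 for Cspg4, 5 for Notch3 and 7 for Wt1. Alternatives were RLE factors, no filter, DESeq2 1.42.0, fits of 2 groups, a replicate block, removal of each library's length trend, omission of libraries and, added after seeing the data, a trend on transcript length.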

Additional observations from a re-analysis of the deposited data

Results flagged for a closer look

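Within groups, 99 sets of collagen levels (33 genes in 3 groups) were checked for a library far from the others, and 2 had one, where chance gives about 1 set in 20. Col5a1 stood at 75.8 CPM in R502W mavacamten 1, against 59.1 to 60.5 CPM in the other R502W mavacamten libraries. Col6a1 stood at 133.8 CPM in the same library, against 112.7 to 113.2 CPM in the others. In the comparison with WT control without R502W mavacamten 1, 6 collagens and 681 of all genes were called, against 8 and 1232 with it.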

How the results depend on the processing

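Of 33 collagens, the genotype comparison (R502W control over WT control) called 14 with every library, and the comparison of R502W mavacamten with WT control called 8. With the exonic length trend removed the genotype count was 9, with the transcript length trend removed 7 and without the 3 Bmp10-poor libraries 9. In R502W mavacamten over WT control the count was 2 with the transcript length trend removed, 5 with only these groups fitted and 3 without the Bmp10-poor libraries. With 1 library left out, the counts ran from 10 to 15 in the genotype comparison and from 5 to 10 in R502W mavacamten over WT control. The comparison of R502W mavacamten with R502W control called no collagen under any alternative run; over all genes it called none with edgeR and 6 with DESeq2. The removal of libraries leaves fewer samples; for the other settings the cause was not tested.

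Over all genes, the genotype comparison called 1294 genes higher and 562 lower (1856 in all). It called 1126 with the transcript length trend removed, 404 without the Bmp10-poor libraries, and from 866 to 1870 with 1 library left out, and DESeq2 gave 1434 higher and 1069 lower. R502W mavacamten over WT control called 889 higher and 343 lower (1232 in all), which became 668 and 413 with RLE factors and 1092 and 748 with DESeq2. It called 740 genes in all without a filter, 632 with the exonic and 430 with the transcript length trend removed, 216 with only these groups fitted, 86 without the Bmp10-poor libraries and from 359 to 1213 with 1 library left out. The lowest counts came without R502W control 2 and without R502W mavacamten 2.

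Replicate numbers did not pair the libraries: same-numbered libraries of different groups correlated by -0.323 to 0.253. With the number as a replicate block, the genotype comparison called 963 genes and R502W mavacamten over WT control called 349, with 11 and 8 collagens among them.

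No called collagen changed direction under an alternative. Fold changes that missed the threshold changed sign in 64 of the refits of single members. These refits fell in 28 of the 99 combinations of member and comparison, each of which had up to 21 refits. Collagens with a mean below 3 CPM in every group, such as Col22a1, Col20a1 and Col8a2, rest on few counts.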
